A study of Homo sapiens with 6 samples.

Results

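The miR-200 family comprises small regulatory RNAs that are cut from hairpin precursors and repress messenger RNAs. Its precursor genes MIR200A, MIR200B, MIR200C and MIR429 were followed in HEK293, a cell line from human embryonic kidney. They were found by their symbols in the platform annotation, which named 4 rows, 1 per gene, of 53617 rows on the array. These are 4 of 14884 named genes and 4 of 1072 named microRNA genes. The family was chosen because MIR200C stood out between the groups. The group differences of the family are therefore given as a description, with no test, and their intervals take no account of that choice. The fifth family gene, MIR141, was not among the genes chosen and has a row of its own, which is described beside them.

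Both groups were Flp-In HEK293 cells of the inducible T-REx type, where a recombinase places the construct at 1 prepared genomic site. The TDNC1 group stably carried TDNC1, and the control group carried a random RNA in the same system. The meaning of the name TDNC1 is not in the labels, and the sources used here do not give whether cells were induced. Both groups were grown in high-glucose medium with serum and blasticidin, with hygromycin in place of Zeocin after transfection. Stable clones were pooled, so single clones cannot be told apart. Each group had 3 Affymetrix Human Gene 2.0 ST arrays of total RNA, which the labels call biological replicates. Whether they came from separate cultures is not stated, so the spread can be partly technical. The comparison asks which transcripts differ when TDNC1 is expressed.

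As background, mature miR-200 RNAs are known as guards of the epithelial state. They repress the transcription factors ZEB1 and ZEB2, and these in turn repress both miR-200 gene clusters, so that each side holds the other down. A microRNA finds its targets mainly through its seed, bases 2 to 8. MIR200B, MIR200A and MIR429 lie together on chromosome 1, and MIR200C and MIR141 on chromosome 12. A row on this array reads RNA that holds the hairpin sequence, so long primary transcripts and cut hairpins are not told apart, and mature microRNAs are not measured as such.

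The mature sequences show which family members are alike, and are given with the seed in capitals. Sequences and positions are those of RefSeq on GRCh38.p14, written 5′ to 3′, all on the plus strand. For the array's own annotation the sources used here do not give a build.
hsa-miR-200c-3p: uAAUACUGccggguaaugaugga
hsa-miR-200b-3p: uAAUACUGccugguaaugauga
hsa-miR-429: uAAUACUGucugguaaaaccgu
hsa-miR-200a-3p: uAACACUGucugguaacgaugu
hsa-miR-141-3p: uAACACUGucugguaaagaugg

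The seed AAUACUG was shared by 3 mature RNAs, miR-200c-3p, miR-200b-3p and miR-429, and by no other of 2370 mature names in the table. The seed AACACUG was shared by 2, miR-200a-3p and miR-141-3p. Each cluster thus holds both seeds. Over the first 22 bases, miR-200c-3p differed from miR-200b-3p at 2 positions and from its chromosome 12 neighbour miR-141-3p at 4. It differed from miR-200a-3p at 5 positions and from miR-429 at 7.

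The hairpins are what the rows read, and are given with the mature 3p arm in capitals. MIR200C lies at chr12:6963699-6963766, MIR141 at chr12:6964097-6964191, MIR200B at chr1:1167104-1167198 and MIR429 at chr1:1169005-1169087. For MIR200A the sequence source holds no hairpin, and its 2 arms span chr1:1167878-1167899 and chr1:1167916-1167937.
MIR200C: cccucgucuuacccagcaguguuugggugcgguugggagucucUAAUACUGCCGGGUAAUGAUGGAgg
MIR141: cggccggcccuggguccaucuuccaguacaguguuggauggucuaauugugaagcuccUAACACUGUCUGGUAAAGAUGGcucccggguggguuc
MIR200B: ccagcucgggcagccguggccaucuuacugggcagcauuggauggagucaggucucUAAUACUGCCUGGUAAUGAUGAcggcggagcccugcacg
MIR429: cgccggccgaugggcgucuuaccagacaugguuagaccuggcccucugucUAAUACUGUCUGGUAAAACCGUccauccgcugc

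Over their whole length the hairpins differ more than their mature arms. Those of MIR200C and MIR141 had 53.6% of aligned positions alike and shared no run longer than 7 bases. MIR200C and MIR200B shared a longest run of 15 bases, and MIR200C and MIR429 one of 10. The 330 bases between MIR200C and MIR141 and both hairpins lie within the span of one host gene, MIR200CHG. The chromosome 1 precursors lie within MIR200BHG. Neither host gene is named on the array here.

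MIR200C was higher in every TDNC1 array than in every control array. Its log2 expression value was 4.25, 4.56 and 4.31 in TDNC1 replicates 1, 2 and 3. In control replicates 1, 2 and 3 it was 3.53, 3.08 and 3.49. The lowest TDNC1 array thus lay 0.72 above the highest control array. The TDNC1 mean was 4.38 ± 0.17 and the control mean 3.37 ± 0.25 (SD, n = 3 each). The difference of 1.01 (SE 0.15, 95% interval 0.65 to 1.37) corresponds to a ratio of 2.01. This is the contrast by which the family was chosen.

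MIR200C was a dim row in the control cells. The lower quartile of the arrays lay between 3.77 and 3.84, so all 3 control values were below it and all 3 TDNC1 values above it. With every value under an array's lower quartile raised to that quartile, the difference was 0.55. Control replicate 2 was the lowest array, and without it the difference was 0.87.

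MIR141, which supplies the other seed from the same host gene, gave no such separation. It stood at 4.69, 4.87 and 5.12 in the TDNC1 arrays and at 5.09, 4.94 and 5.15 in the control arrays. The groups overlapped, with TDNC1 replicates 1 and 2 below all controls and TDNC1 replicate 3 among them. The difference was -0.17 (SE 0.13, 95% interval -0.48 to 0.15). The differences of MIR200C and MIR141 thus lay 1.17 apart on the log2 scale.

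MIR200B, which shares the seed of MIR200C, had a negative difference. It stood at 5.14, 5.12 and 5.29 in TDNC1 and at 5.51, 5.70 and 5.16 in the control. Control replicates 1 and 2 lay above all TDNC1 arrays, and control replicate 3 lay within the TDNC1 range. The means were 5.18 ± 0.09 and 5.46 ± 0.28 (SD, n = 3 each), a difference of -0.27 (SE 0.15, 95% interval -0.63 to 0.08). Without control replicate 2 it was -0.15, and without replicate 3 of both groups, an alternative added after the data were seen, it was -0.47.

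MIR200A lies next to MIR200B and makes the other seed. The TDNC1 arrays gave 3.63, 4.01 and 3.35, and the control arrays 3.56, 3.40 and 3.46. TDNC1 replicate 2 was the highest array and TDNC1 replicate 3 the lowest, with the controls between them. The difference of 0.19 (SE 0.17, 95% interval -0.21 to 0.59) came down to 0.02 without TDNC1 replicate 2. It was 0.35 without TDNC1 replicate 3.

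MIR429, the last hairpin of the chromosome 1 cluster, stood at 3.95, 3.78 and 3.48 in TDNC1 and at 3.27, 3.61 and 3.62 in the control. TDNC1 replicates 1 and 2 were above all controls, and TDNC1 replicate 3 was within their range. The difference was 0.24 (SE 0.16, 95% interval -0.13 to 0.61). It was 0.13 without TDNC1 replicate 1, 0.12 without control replicate 1 and 0.37 without TDNC1 replicate 3. With the floor at the lower quartile it was 0.03, and that of MIR200A was 0.04, since most values of both rows lie below that quartile.

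**Figure D1:**
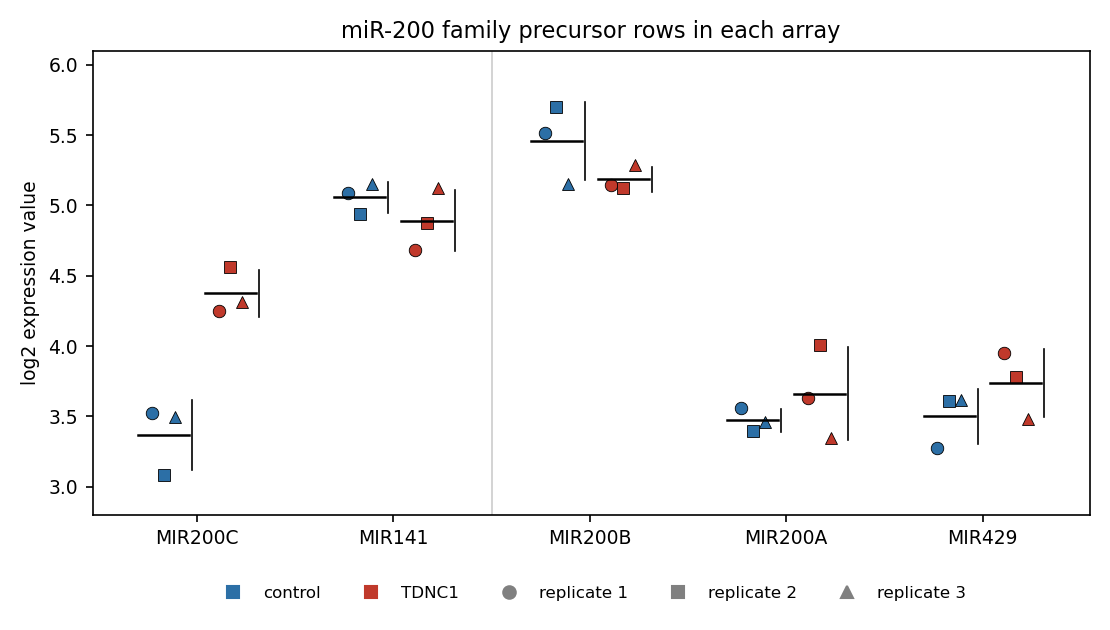
Log2 expression value (vertical axis) of each miR-200 family precursor row in the 6 arrays, with the group mean (horizontal line) and SD (vertical line, n = 3). The chromosome 12 genes are left of the grey line; for MIR200C the TDNC1 arrays (4.25 to 4.56) lie above the control arrays (3.08 to 3.53), and for the other genes the groups overlap.

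Groups that do not overlap, with TDNC1 higher, were found in 6.48% of all rows and in 4.29% of 1236 microRNA rows, and 1 of the 4 members, MIR200C, was among them. Since the family was chosen on this contrast, nothing is read from that count. In limma's moderated test with Benjamini-Hochberg adjustment, 1 of 53617 rows was called (0.00187%), and it was no member. Without TDNC1 replicate 3, 23 rows were called, again with 0 members among them. The row called with all arrays was LOC646736, a long noncoding RNA, at 9.71, 9.85 and 9.65 in TDNC1 against 3.56, 3.56 and 3.90 in the control (adjusted p = 1.83e-05).

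MIR200C had a higher place within each TDNC1 array than within any control array. In the TDNC1 arrays it ranked 35991, 33092 and 35598 from the highest of 53617 rows, above 32.9%, 38.3% and 33.6% of them. In the control arrays it ranked 42585, 45643 and 42600, above 20.6%, 14.9% and 20.5%. Among microRNA rows alone it lay above 51.4%, 55.8% and 52.8% in TDNC1 and above 39.8%, 32.0% and 39.3% in the control.

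The places of the other precursors overlapped between the groups. MIR200B had the highest place of the chromosome 1 cluster, above 49.1% to 52.4% of all rows in TDNC1 (ranks 25534 to 27275) and 50.0% to 59.6% in the control (ranks 21649 to 26804). MIR141 lay above 40.8% to 49.1% in TDNC1 (ranks 27276 to 31735) and 45.0% to 49.9% in the control (ranks 26862 to 29494). MIR200A lay above 18.4% to 28.5% in TDNC1 (ranks 38358 to 43751) and 18.8% to 21.0% in the control (ranks 42336 to 43535). MIR429 lay above 20.2% to 27.8% in TDNC1 (ranks 38689 to 42762) and 17.3% to 22.2% in the control (ranks 41697 to 44325). These are places of rows and not amounts of RNA, since the probes of different rows bind with different strength.

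**Figure D2:**
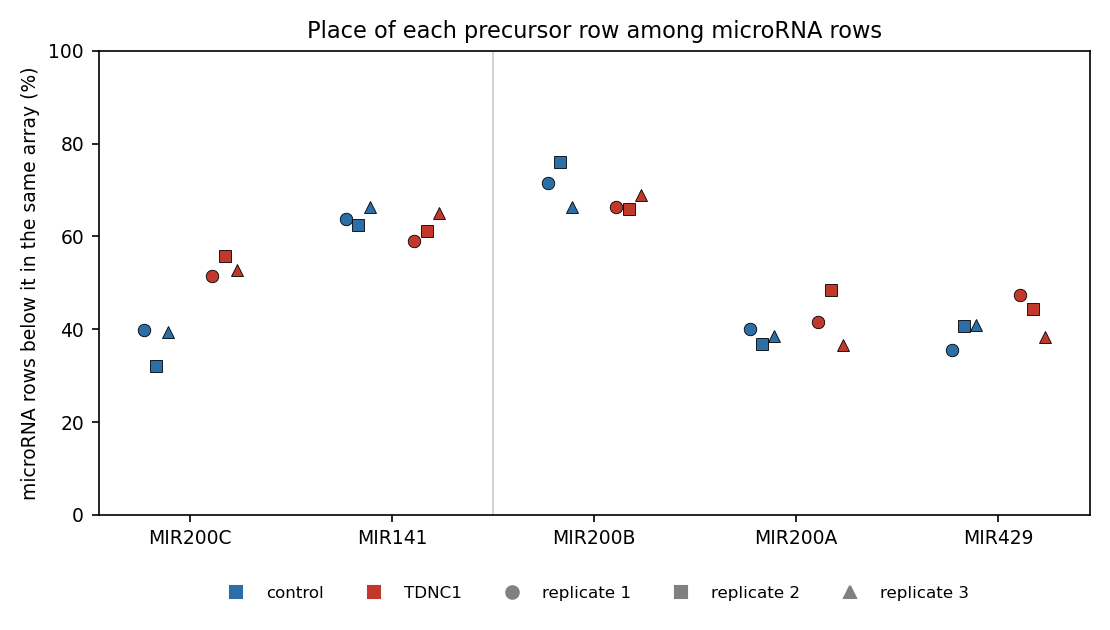
Share of the 1236 microRNA rows that lie below each precursor row in the same array, in percent (vertical axis), for 3 control and 3 TDNC1 arrays. MIR200C lies above 32.0% to 39.8% of them in the control and above 51.4% to 55.8% in TDNC1, and the ranges of the other genes overlap between the groups.

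Precursor rows as a class followed base composition. Over 884 microRNA genes with a hairpin sequence, the row's mean level and the hairpin's share of G and C had a Spearman correlation of 0.67. The points share arrays and probe design, and the value is a description. The difference between the groups did not follow composition in this way, with a correlation of -0.02. The hairpins of MIR200C and MIR141 hold 55.9% and 55.8% G and C, those of MIR429 and MIR200B 57.8% and 60.0%, and the median over the 884 was 48.3%.

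The difference of MIR200C, on which the family was chosen, was the highest among microRNA rows. It ranked 1 of 1236, followed by MIR548AD with 0.68, MIR3124 with 0.63, MIR550A1 with 0.62 and MIR4688 with 0.60. The middle 95% of microRNA rows ran from -0.47 to 0.38, with a median of -0.03, and 36 exceeded 0.5 in size. MIR429 ranked 101, MIR200A 144, MIR141 975 and MIR200B 1103. Over the whole array 76 rows had a difference at least as high as that of MIR200C, 5 of them among the 4223 rows within 0.25 of its mean level. MIR200C itself is counted in both numbers. Its spread between replicates was ordinary, with a residual SD of 0.210 where the median microRNA row had 0.195.

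**Figure D3:**
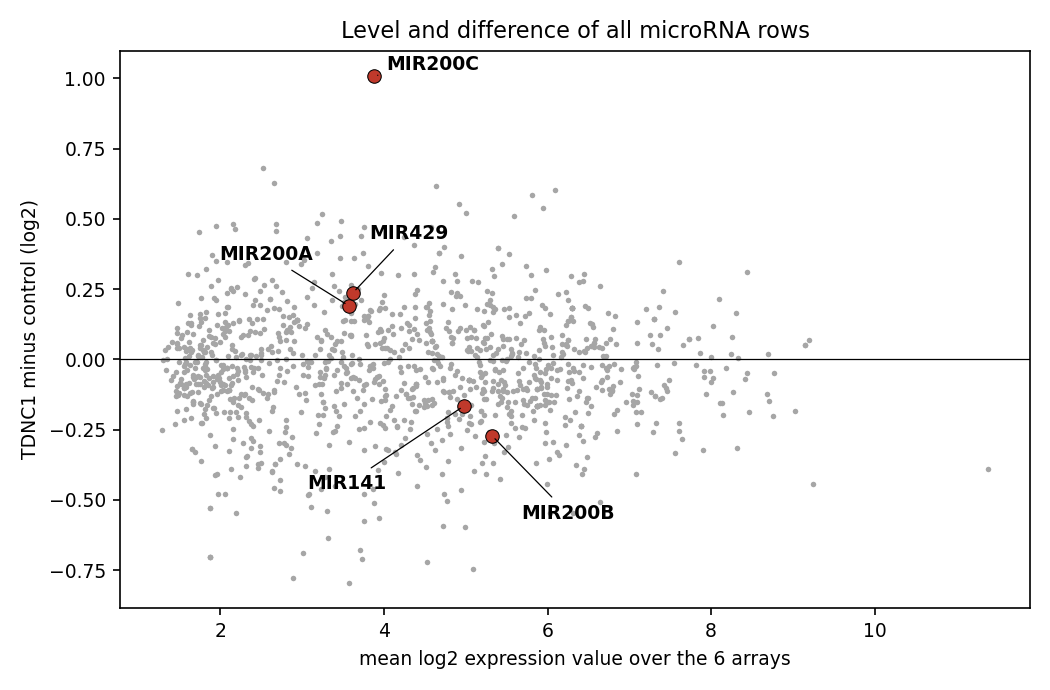
Mean log2 expression value over the 6 arrays (horizontal axis) against the difference TDNC1 minus control on the log2 scale (vertical axis) for all 1236 microRNA rows in grey, with the miR-200 family in red. MIR200C, at 1.01, has the highest difference, and the other family rows lie between -0.27 and 0.24.

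Hairpins that lie side by side were compared to see how far their rows usually part. There were 85 pairs of neighbouring measured hairpins with a sequence entry, on one strand and at most 1000 bases apart. MIR200A has no hairpin entry, so MIR200B and MIR200A, with differences of -0.27 and 0.19, are not among these pairs. The differences of the 2 members of a pair lay a median of 0.16 apart. MIR200C and MIR141 lay furthest apart, with 1.17, and the next pair, MIR544A and MIR655, lay 0.90 apart. Across the pairs the differences had a correlation of -0.04, and of 0.00 without MIR200C and MIR141. MIR200C was chosen for its high difference, so the place of its pair follows largely from that choice, and nothing is read from it. These values are a description, and the pairs share the 6 arrays.

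No gene with a named row around either locus was called, and genes without a named row here were passed over. On chromosome 12, 0 of the 10 nearest named genes (5 on each side) were called. An unadjusted p under 0.05 in limma was found for 0, where 7.70% of all rows had it. Their differences ran from -0.20 to 0.13 with a median of -0.07. C12orf57, ATN1 and LRRC23 before the locus had 0.11 (SE 0.10), -0.08 (SE 0.10) and 0.13 (SE 0.10). After it, PHB2, which encodes a prohibitin of the inner mitochondrial membrane, stood at 10.33, 10.32 and 10.52 in TDNC1 and at 10.48, 10.44 and 10.53 in the control. The Cajal body RNA SCARNA12, within the span of PHB2, had -0.01 (SE 0.10), and EMG1, a ribosomal RNA methyltransferase, -0.05 (SE 0.10). None of these named neighbours had a difference of the size seen in MIR200C.

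On chromosome 1 again 0 of 10 neighbours were called and 0 had an unadjusted p under 0.05, with differences from -0.20 to 0.22 and a median of 0.03. The long noncoding RNA LINC01342, C1orf159 and RNF223 had 0.18 (SE 0.12), 0.01 (SE 0.11) and -0.17 (SE 0.11). On the other side SDF4, a calcium-binding protein of the Golgi, had 0.10 (SE 0.11), the pseudouridine synthase gene PUSL1 -0.20 (SE 0.13) and INTS11, the cutting subunit of the Integrator complex, 0.05 (SE 0.10). Adjusted p in limma was 0.703 or higher for each of the 20 genes.

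**Figure D4:**
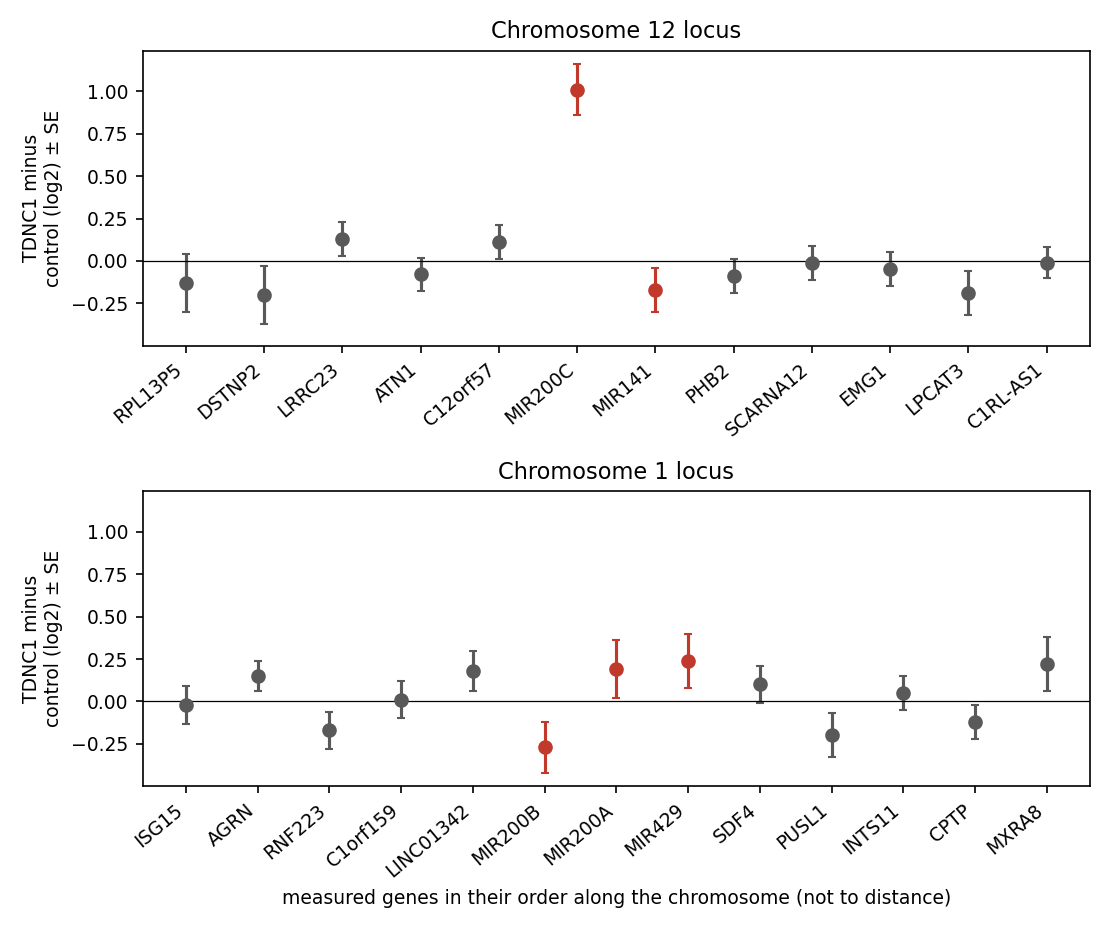
Difference TDNC1 minus control on the log2 scale, with its SE, for the miR-200 family rows (red) and the 5 nearest genes with a named row on each side (grey), in their order along chromosome 12 (top) and chromosome 1 (bottom). MIR200C lies at 1.01 while its 10 neighbours lie between -0.20 and 0.13 and MIR141 at -0.17.

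ZEB1 and ZEB2, the best known partners of the family, were not called, and their group means lay 0.05 apart. ZEB1 stood at 5.91, 6.05 and 6.04 in TDNC1 and at 6.02, 5.94 and 5.90 in the control, a difference of 0.05 (SE 0.09, 95% interval -0.17 to 0.27). ZEB2 stood at 6.50, 6.28 and 6.46 against 6.46, 6.48 and 6.46, a difference of -0.05 (SE 0.10, 95% interval -0.28 to 0.17). The groups overlapped for both genes. Of 17 measured genes of 24 listed as regulators of miR-200 and of the switch between epithelial and mesenchymal states, 0 were called. Unadjusted p under 0.05 was found for 1 higher and 1 lower gene, where 7.70% of all rows had it, and the median difference was -0.002 beside -0.01 over all rows.

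The 4 regulators with the smallest p went both ways. TWIST2, a repressor of epithelial genes, stood at 4.89, 4.88 and 5.29 against 5.53, 5.35 and 5.54, a difference of -0.45 (SE 0.14, limma adjusted p = 0.631). SMAD4, the shared partner in TGF-beta signalling, had 0.21 (SE 0.09, limma adjusted p = 0.646). The homeobox gene PRRX1 had 0.36 (SE 0.15) and the p53 relative TP73 -0.31 (SE 0.16).

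Reported targets of the family were mostly a little higher in TDNC1, and none was called. Of 32 listed, 23 were measured, and 18 had positive and 5 negative differences, where 52.4% of 11916 protein-coding genes were positive. The median difference was 0.11, beside -0.01 over all rows and 0.01 over protein-coding genes. Unadjusted p under 0.05 in limma was found for 2, both higher, where 7.29% of protein-coding genes had it in either direction. The groups did not overlap for 7 (30.4%), all higher in TDNC1, where 9.89% of protein-coding genes were higher in this way and 6.36% lower. Among regulators, epithelial, mesenchymal and microRNA processing genes it was 1, 3, 1 and 0 higher and 1, 1, 1 and 0 lower. These lists had 17, 29, 16 and 14 measured genes. Without TDNC1 replicate 3, 11 of 23 targets (47.8%) were higher in this way, beside 25.4% of protein-coding genes. Lower was 1 target (4.3%), beside 20.1%. For the other lists, in the same order, it was then 4, 6, 4 and 4 higher and 5, 4, 4 and 5 lower. This count is given for no other left-out array. TDNC1 replicate 3 is the TDNC1 array that differed least from the controls, so nothing is read from the rise. The lists were chosen with earlier results of these data known, and no test of the target list was made.

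VEGFA, the vascular growth factor, stood at 7.99, 7.86 and 7.57 in TDNC1 and at 7.48, 7.32 and 7.51 in the control, a difference of 0.37 (SE 0.13, limma adjusted p = 0.631). LOX, which crosslinks collagen, stood at 7.86, 7.71 and 7.43 against 7.14, 7.33 and 7.39, a difference of 0.38 (SE 0.14, limma adjusted p = 0.632). For both genes TDNC1 replicate 3 lay only slightly above the highest control. JAG1, a Notch ligand, stood at 8.77, 8.65 and 8.47 against 8.35, 8.40 and 8.45, with the same array next to the controls. The matrix protein gene FN1 had 0.25 (SE 0.11) with overlapping groups.

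Epithelial genes had differences in both directions. Of 40 listed, 29 were measured, 0 were called, 13 differences were positive and 16 negative, and the median was -0.01. Unadjusted p under 0.05 in limma was found for 2 higher and 1 lower, where 7.29% of protein-coding genes had it in either direction. EPCAM, a cell adhesion molecule of epithelia, stood at 10.01, 10.04 and 9.77 in TDNC1 and at 10.04, 9.99 and 9.69 in the control. The tight junction proteins MARVELD3 and MARVELD2 went in opposite directions, with 0.34 (SE 0.12) and -0.38 (SE 0.15). The claudin gene CLDN4 had 0.26 (SE 0.11) and the transcription factor gene GRHL1 -0.24 (SE 0.12). CDH1 has no named row here.

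Mesenchymal genes, of which 16 of 31 were measured, had a median difference of -0.04, with 7 positive and 9 negative and 0 called. Of the 16, 9 also stand on the lists above: ZEB1, ZEB2, SNAI1, SNAI2, TWIST1, TWIST2, PRRX1, LOX and FN1. The 2 genes with an unadjusted p under 0.05 in limma were LOX, higher, and TWIST2, lower, where 7.29% of protein-coding genes had it. VIM, the mesenchymal intermediate filament vimentin, stood at 8.62, 8.67 and 8.71 against 8.68, 8.76 and 8.71, a difference of -0.04 (SE 0.08).

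Of 24 genes listed for making and using microRNAs, 14 were measured and 0 were called. An unadjusted p under 0.05 in limma was found for 0, where 7.29% of protein-coding genes had it. Their median difference was -0.04, with 4 positive and 10 negative. DGCR8, which holds the primary transcript for the first cut, had -0.06 (SE 0.14). TARBP2, a partner of Dicer, had -0.19 (SE 0.10), SRRT, which links capped RNA to the first cut, -0.23 (SE 0.14), the RNA-binding protein gene KHSRP -0.15 (SE 0.10) and TNRC6A, a silencing partner of Argonaute, -0.20 (SE 0.14). DROSHA and DICER1 have no named row here.

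**Figure D5:**
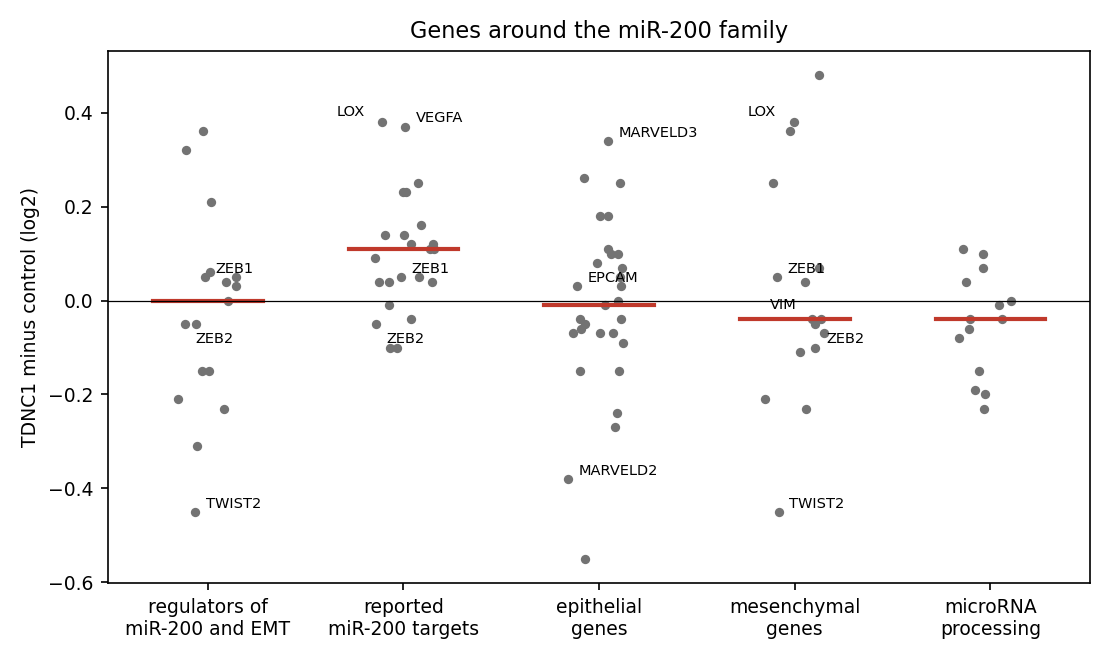
Difference TDNC1 minus control on the log2 scale for each measured gene of 5 lists around the miR-200 family (grey points; genes on several lists appear in each), with the list's median in red. The medians lie between -0.04 and 0.11, and 0 genes of these lists were called in limma.

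The named rows whose values ran most like those of MIR200C were sought by the root mean square difference of row-centred log2 values over the 6 arrays, among 16098 named rows. The nearest were ADGRG2, an adhesion receptor gene, at 0.217, the septin gene SEPTIN3 at 0.235, the antisense RNA BASP1-AS1 at 0.236, HMGCS1 of sterol synthesis at 0.242 and CLYBL, a mitochondrial lyase gene, at 0.248. Their differences were 0.80, 0.74, 0.57, 0.61 and 0.87, each below that of MIR200C. The other precursors had closer matches. The measure is not scaled, so it grows with the size of a row's own differences and does not tell how distinct a profile is. MIR200B was nearest to TIMD4 (0.034), PDPK1 (0.050) and TNRC6A (0.053). MIR200A was nearest to LAIR1 (0.062), MIR601 (0.065) and EXPH5 (0.070), and MIR429 to FSTL4 (0.048), EGLN3 (0.049) and CMIP (0.054). The other members were left out of each search.

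Of the array as a whole, the medians lay between 5.16 and 5.22. TDNC1 replicate 3 differed by a median of 0.161, 0.156 and 0.136 per row from control replicates 1, 2 and 3. From TDNC1 replicates 1 and 2 it differed by 0.188 and 0.177, more than from any control array. Over microRNA rows this was less marked, at 0.205, 0.197 and 0.192 from the controls against 0.205 and 0.190. In MIR200C, TDNC1 replicate 3 lay with the other TDNC1 arrays. That row was chosen because it stood out between the groups, so nothing is read from this. Of the 5 kidney and neural lineage markers listed for HEK293, 2 were named, PAX2 and LHX1, and lay above 61.1% to 72.4% of rows. EPCAM lay above 96.1% to 97.2%, and the blood marker CD14 above 39.2% to 49.4%. Of the 3 measured fibroblast markers, DCN lay above 4.6% to 7.7%, LUM above 17.5% to 31.3% and THY1 above 55.8% to 64.2%. Among the 8 measured markers of these cells and of other cell types, 0 were called (smallest adjusted p in limma = 0.631).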

How the data were processed

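Per the submitters' processing notes, the authors used Affymetrix Power Tools and RMA to make the deposited log2 expression values; the sources used here do not give version, annotation or build. The log2 scale was judged from the range of the values. RMA subtracts a modelled background and equalises the arrays, so a shift of most rows would be removed. Differences of dim rows, such as MIR200C in the control cells, MIR200A and MIR429, may be compressed, which was not tested. Of 53617 rows, 16098 had 1 symbol in the platform annotation and were named. The other 37519 were left unnamed, whether they had no symbol or several, which was not counted. Symbols were updated through RefSeq. TDNC1 and control were compared in R 4.3.3 by limma 3.58.1 (linear model and empirical Bayes, two-sided, no covariate, all rows, Benjamini-Hochberg, called at adjusted p under 0.05). The fit was tested on simulated data whose planted changes were all larger than any member's difference. Recovery of differences of the members' size was not tested. A gene with several rows was taken by its brightest. The members, lists and alternatives were chosen with earlier results of these data known. Named were all members, MIR141, fixed partner genes, the 4 genes of each list with the smallest p, 3 neighbours on each side of a locus and the nearest rows by profile. Arrays have no sequencing depth, and 3 per group limit the precision.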

Additional observations from a re-analysis of the deposited data

How the results depend on the processing

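The sign of each member's difference held in the 13 alternatives tried, and no member was called in any of 17 other fits, 1 of which, over rows above the median level, left out MIR200C, MIR200A and MIR429. MIR200C ran from 0.55 to 1.10. It moved by more than its replicate spread only with the floor at each array's lower quartile (0.55), by construction of that floor. Leaving out 1 array gave 0.87 to 1.09 for MIR200C, -0.42 to -0.15 for MIR200B, 0.02 to 0.35 for MIR200A and 0.12 to 0.37 for MIR429. The rows called ran from 1 to 23 without 1 array each; it was 23 without TDNC1 replicate 3 and 2 without control replicate 3. The cause was not tested.

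List medians stayed small. With arrays centred on their microRNA medians they were 0.05 for regulators, 0.16 for targets and 0.04 for epithelial genes, and with arrays centred on their medians 0.01 for epithelial genes. Without replicate 3 of both groups, added after the data were seen, it was 0.01 for epithelial genes. Leaving out 1 array gave -0.03 to 0.01 for regulators, 0.08 to 0.13 for targets, -0.01 to 0.01 for epithelial genes, -0.04 to 0.04 for mesenchymal genes and -0.07 to 0.02 for processing genes. With the replicate number as a block, 1 row was called, and MIR200C had 1.01 (SE 0.18). Deviations of same-numbered arrays had correlations of 0.0359, -0.00129 and 0.0468, so the numbers were not taken to pair the arrays. TDNC1 replicate 2 correlated best with control replicate 1.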
